A study of Mus musculus with 12 samples.

Results

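The E2F transcription factors and their Tfdp partners make up a small gene family at the head of the cell cycle transcription programme. Its 10 listed genes, E2f1 to E2f8, Tfdp1 and Tfdp2, were looked up by symbol in a table of read counts for 46517 mouse genes, and all 10 were found, each as a single Ensembl gene. The table holds 12 libraries. Astrocytes derived from tumor, tumor granule neuron progenitors (GNPs, the dividing precursors from which this cerebellar medulloblastoma grows) and normal astrocytes have 4 libraries each. The labels give strain C57BL/6 for both astrocyte groups, and C57BL/7, C57BL/8, C57BL/9 and C57BL/10 for GNP libraries 1, 2, 3 and 4. No genotype, age or sex is given there. A sample sheet deposited with the counts calls the normal cells adult astrocytes of the cerebellum, and it writes cultured beside the first GNP entry, while the labels give laser capture for all 12 libraries. Culture and age therefore cannot be told apart from cell type, and the same holds for the labelled strain where GNPs are compared with astrocytes. The GNP strain names run on in number from library to library, and whether they name separate strains is not stated.

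E2F proteins bind promoters of genes needed for DNA replication and mitosis, most of them as dimers with a Tfdp (DP) protein. The retinoblastoma family of pocket proteins holds them inactive until cyclin-dependent kinases phosphorylate the pocket protein at the end of G1. E2f1, E2f2 and E2f3 are the activators, E2f4 and E2f5 act mostly as repressors with a pocket protein in resting cells, E2f6 represses with Polycomb proteins and binds no pocket protein, and E2f7 and E2f8 repress late in S phase without a Tfdp partner. In granule neuron progenitors, Hedgehog signalling drives division through N-myc and the D-type cyclins, upstream of the pocket proteins.

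Values are TMM-normalised CPM (counts scaled by library size and composition), given for replicates 1, 2, 3 and 4 of a group in that order. Libraries held 8154401 to 12626596 counts, and a count of 0 allows up to 3 counts, on average 0.339 CPM in tumor-derived astrocytes, 0.315 CPM in GNPs and 0.294 CPM in normal astrocytes. GNP replicates 1, 2 and 4 lay far closer together than other libraries of a group, with chi-square per degree of freedom of 1.43 to 7.52 for their pairs and 24.03 to 184.32 for the other pairs within groups. They count as 1 sample in GNP means (n = 2), and a difference from GNPs is called only if it passed both with all 12 libraries separate and with these 3 summed. The threshold is an adjusted p of 0.05 in edgeR's quasi-likelihood test over all 14393 genes tested. Each fold change carries its standard error and comes from the fit of 12 libraries. No label names the animal behind a library, so libraries may share one, and p-values are then too small. They measure only the spread between these libraries, which may be technical. A lower value in a library can mean fewer cells that hold the transcript or less of it per cell, and these counts cannot tell the cases apart. With the labelled cell types in view, summed astrocyte markers (9 genes) ran from 941 to 2054 CPM in tumor-derived astrocytes, from 464 to 693 CPM in GNPs and from 5764 to 12839 CPM in normal astrocytes. Aldoc carried most of the normal sum, at 479 ± 198 CPM in tumor-derived astrocytes (SD, n = 4), 35.2 ± 25.9 CPM in GNPs (SD, n = 2) and 6960 ± 3300 CPM in normal astrocytes (SD, n = 4). In tumor-derived over normal astrocytes 4 of 8 tested markers were lower (Aldoc, Slc1a3, Slc1a2 and S100b), where 19.3% of all tested genes were called lower. Aqp4 (-1.24 ± 0.55, log2) and Sox9 (-1.15 ± 0.88) pointed down without passing. Against 20.7% of all tested genes called higher, 1 marker was, Gfap (92.4 ± 40.3 against 11.2 ± 19.9 CPM, adjusted p = 0.0284 in edgeR, not called in DESeq2). Aldh1l1 did not pass there, averaging 274 ± 58.4 CPM in tumor-derived astrocytes against 241 ± 153 CPM in normal ones. Summed granule progenitor markers (9 genes) ran from 635 to 811 CPM in tumor-derived astrocytes, from 575 to 698 CPM in GNPs and from 244 to 513 CPM in normal astrocytes. In tumor-derived over normal astrocytes 5 of the 9 were called higher and 0 lower, and against GNPs 0 were called. Atoh1, which defines these progenitors, was at 3.74 to 13.2 CPM in tumor-derived astrocytes and 24.7 to 59.4 CPM in GNPs. It was at 0 in every normal astrocyte library. The part of progenitor transcripts in the E2F values of tumor-derived astrocytes was not tested.

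Of the 10 genes, 8 passed the filter on low counts and were tested, and E2f3 and Tfdp1 did not pass. In tumor-derived over normal astrocytes, 4 of the 8 were higher (E2f1, E2f2, E2f7 and Tfdp2), where 20.7% of all tested genes were called higher, and 2 were lower (E2f5 and E2f6), where 19.3% of all tested genes were called lower. In tumor-derived astrocytes over GNPs, 3 were lower (E2f5, E2f6 and E2f8), against 4.36% of all genes, and 0 were called higher by edgeR, against 7.84% of all genes. At an unadjusted p under 0.05 that last count was 1, and DESeq2 gave 0. In GNPs over normal astrocytes, 5 were higher (E2f1, E2f2, E2f7, E2f8 and Tfdp2), against 13.9% of all genes, and 0 were lower by edgeR, by DESeq2 and at an unadjusted p under 0.05, against 13.4% of all genes. The 2 comparisons with normal astrocytes share those 4 libraries, as the others share theirs.

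**Figure D1:**
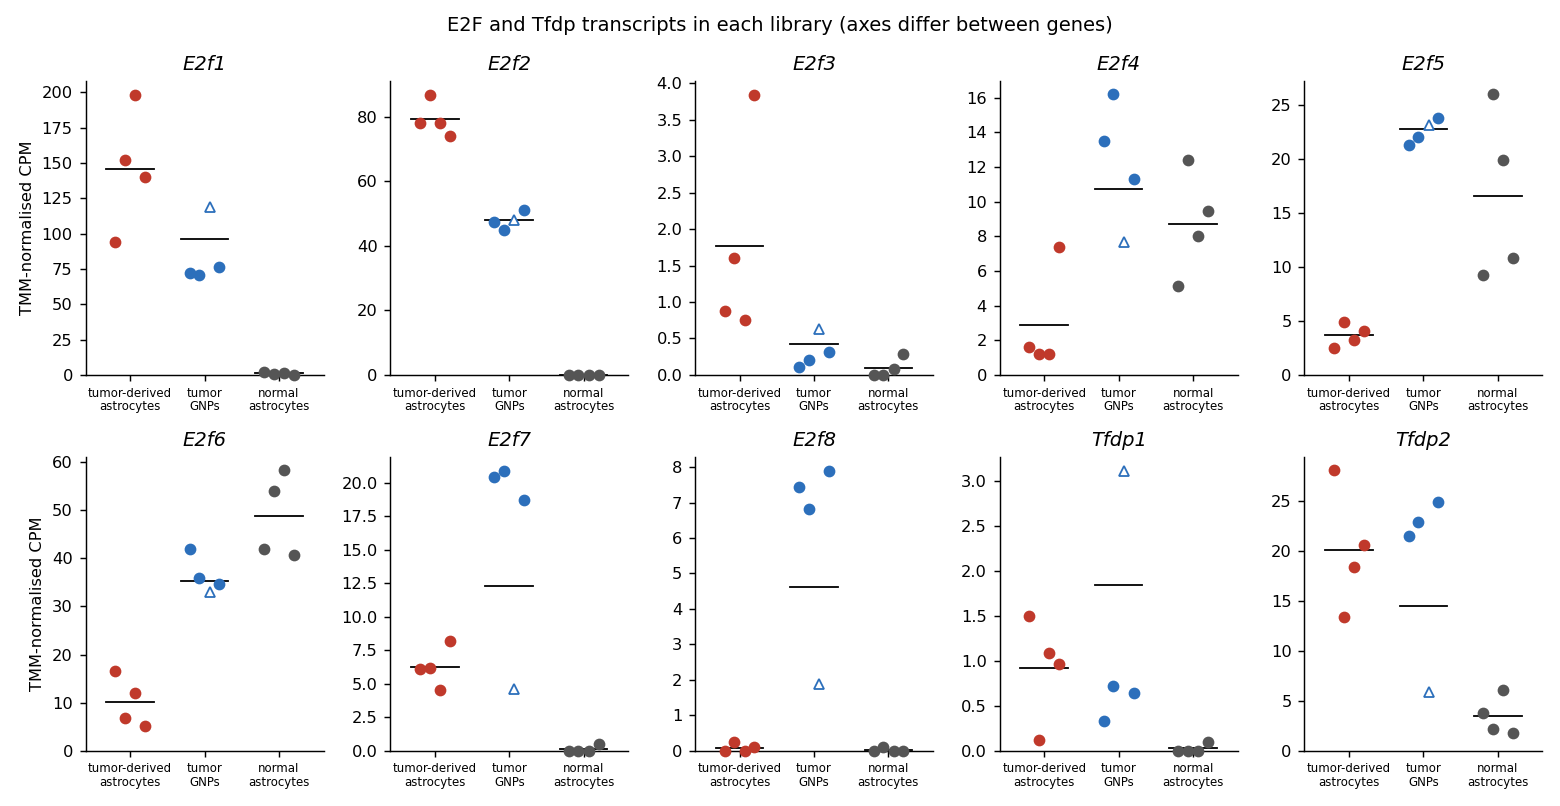
TMM-normalised CPM (linear vertical axes from 0, a scale of its own for each gene) of the 10 genes in each library of tumor-derived astrocytes, tumor GNPs and normal astrocytes. Each point is a library, the open triangle is GNP replicate 3, and the line is the mean, which for GNPs weighs replicate 3 and the mean of the other libraries equally. E2f2 stands at 74.1 to 86.7, 44.8 to 51.2 and 0 CPM in the 3 groups, while E2f8 is high in GNPs and at or near 0 in both astrocyte groups.

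The activators E2f1 and E2f2 were high in both tumor groups, while in normal astrocytes E2f1 was low, with 2 to 22 counts per library, and E2f2 had no counts. E2f1 (chr2:154559407-154569892, minus strand, mm10), the founding member of the family, was at 94.1, 152, 198 and 140 CPM in tumor-derived astrocytes. It was at 71.8, 70.5, 119 and 76.5 CPM in GNPs and at 2.08, 0.454, 1.63 and 0.195 CPM in normal astrocytes. Every library of either tumor group lay above every normal library, while tumor-derived replicate 1 fell below GNP replicate 3, so that the tumor groups overlapped. The means were 146 ± 42.8 CPM in tumor-derived astrocytes (SD, n = 4), 96.0 ± 32.6 CPM in GNPs (SD, n = 2) and 1.09 ± 0.909 CPM in normal astrocytes (SD, n = 4). E2f1 rose by 7.03 ± 0.61 (log2) in tumor-derived over normal astrocytes (adjusted p = 3.09e-06) and by 6.24 ± 0.59 in GNPs over normal astrocytes (adjusted p = 2.91e-06, or 5.45e-05 with the trio summed). The difference between tumor-derived astrocytes and GNPs, 0.79 ± 0.46, did not pass (adjusted p = 0.198 in edgeR).

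E2f2 (chr4:136172394-136196057, plus strand), a close relative of E2f1 that also works through the pocket proteins, had 626, 706, 720 and 772 counts in tumor-derived astrocytes, 439, 440, 463 and 480 in GNPs, and 0 in each normal library. It was thus detected in all 8 tumor libraries and in none of the 4 normal ones. Scaled by library size, tumor-derived astrocytes had 78.1, 86.7, 78.1 and 74.1 CPM of it, and GNPs had 47.4, 44.8, 48.0 and 51.2 CPM. With normal astrocytes set to 3 counts per library, E2f2 was at least 270-fold higher in tumor-derived astrocytes and at least 163-fold higher in GNPs (adjusted p = 1.39e-07 and 7.49e-08 in edgeR, the second 7.65e-06 with the trio summed). The 4 tumor-derived libraries all lay above the 4 GNP libraries, at 79.2 ± 5.35 CPM (SD, n = 4) against 47.9 ± 0.155 CPM (SD, n = 2). This difference of 0.73 ± 0.26 (log2) missed the threshold, with an edgeR adjusted p of 0.0534, or 0.336 with the trio summed.

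E2f3 (chr13:29906575-29985668, minus strand), the third activator, had few counts and was not tested. It had 7, 13, 7 and 40 counts in tumor-derived astrocytes, 1, 2, 6 and 3 in GNPs, and 0, 0, 1 and 3 in normal astrocytes. The lowest tumor-derived library stood above the highest of either other group, and replicate 4 held most of the tumor-derived counts. Without the filter, its difference between tumor-derived and normal astrocytes was 4.04 ± 1.34 (log2, edgeR adjusted p = 0.0346, and 0.0643 with the GNP trio summed), and that between tumor-derived astrocytes and GNPs did not pass (adjusted p = 0.171).

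The atypical repressors E2f7 and E2f8 parted in the tumor-derived astrocytes. Both are E2F targets themselves and are known to damp the activators in a feedback loop. E2f7 (chr10:110745439-110787384, plus strand) was at 6.11, 6.14, 4.55 and 8.16 CPM in the tumor-derived libraries, 20.4, 20.9, 4.57 and 18.7 CPM in GNPs and 0, 0, 0 and 0.488 CPM in normal astrocytes. GNP replicate 3 sat among the tumor-derived libraries and the other GNP libraries far above them. E2f7 rose by 5.54 ± 1.06 (log2) in tumor-derived over normal astrocytes (edgeR adjusted p = 0.00128) and by 6.9 ± 1.11 in GNPs over normal astrocytes (adjusted p = 0.000277, or 0.00457 with the trio summed). Without normal replicate 4, the one normal library with counts of it, these fitted values were 8.91 and 10.28, and they are then no bound because the normal libraries are all at 0. With GNP replicate 3 as the only GNP library, the change in GNPs over normal astrocytes was 5.11 and no longer passed (adjusted p = 0.059). Between the tumor groups the difference of -1.37 ± 0.83 did not pass (adjusted p = 0.224) and rested on the GNP trio, since it was 0.45 with GNP replicate 3 as the only GNP library.

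E2f8 (chr7:48866429-48881596, minus strand) was detected in the tumor GNPs and scarcely at all in either kind of astrocyte. It had 0, 2, 0 and 1 counts in tumor-derived astrocytes, 69, 67, 18 and 74 in GNPs, and 0, 1, 0 and 0 in normal astrocytes. Even GNP replicate 3, the lowest GNP library at 1.87 CPM, lay above every astrocyte library, the highest of which was at 0.246 CPM. Over summed counts E2f8 was 71.4-fold lower in tumor-derived astrocytes than in GNPs (95% exact interval 24.1 to 349, counting error only) and 247-fold higher in GNPs than in normal astrocytes (43.9 to 9800). The fitted change was -5.95 ± 1.19 (log2) in tumor-derived astrocytes over GNPs (edgeR adjusted p = 0.00237, or 0.0275 with the trio summed) and 7.3 ± 1.29 in GNPs over normal astrocytes (0.000562, or 0.00615 summed). Between tumor-derived and normal astrocytes it was 1.35 with an adjusted p of 0.427, on 3 counts against 1. The call against GNPs ended on leaving out GNP replicate 3 (adjusted p = 0.0506) or any single tumor-derived library (0.0613 to 0.0935), while the direction stayed lower throughout. With GNP replicate 3 as the only GNP library neither call passed, at -4.27 (0.303) in tumor-derived astrocytes over GNPs and 5.61 (0.0922) in GNPs over normal astrocytes, and without normal replicate 2, the one normal library with a count, the second value was 8.88. An opposite-strand transcript, Gm2788, overlaps E2f8 and had 37 counts over the 12 libraries against 232 for E2f8, and strand use in counting is not given in the sources used here.

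Set beside the E2f1 counts of the same library, which cancels library size, E2f7 had 64.9, 40.4, 23.0 and 58.1 counts per 1000 E2f1 counts in tumor-derived astrocytes and 284, 296, 38.4 and 244 in GNPs. E2f8 had 0, 1.62, 0 and 0.684 in tumor-derived astrocytes and 104, 96.8, 15.7 and 103 in GNPs. GNP replicate 3 was low on both ratios, inside the tumor-derived range for E2f7 and above it for E2f8. Summed over 8 genes, markers of dividing cells reached 1057 to 1447 CPM in tumor-derived astrocytes, 1705 to 1785 CPM in GNPs and 0.086 to 3.12 CPM in normal astrocytes. Mki67 carried most of both tumor sums, at 872 ± 147 CPM (SD, n = 4) and 945 ± 19.1 CPM (SD, n = 2). The median log2 fold change of the 8 in tumor-derived astrocytes over GNPs was -1.34, against 0.08 over all genes. Of the 8, 0 were called by both edgeR fits, where 4.36% of all tested genes were called lower. With 12 libraries separate 4 passed, all lower, and 5 were lower at an unadjusted p under 0.05. DESeq2 called 1 lower. The part of these markers in the E2f8 difference was not tested.

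**Figure D2:**
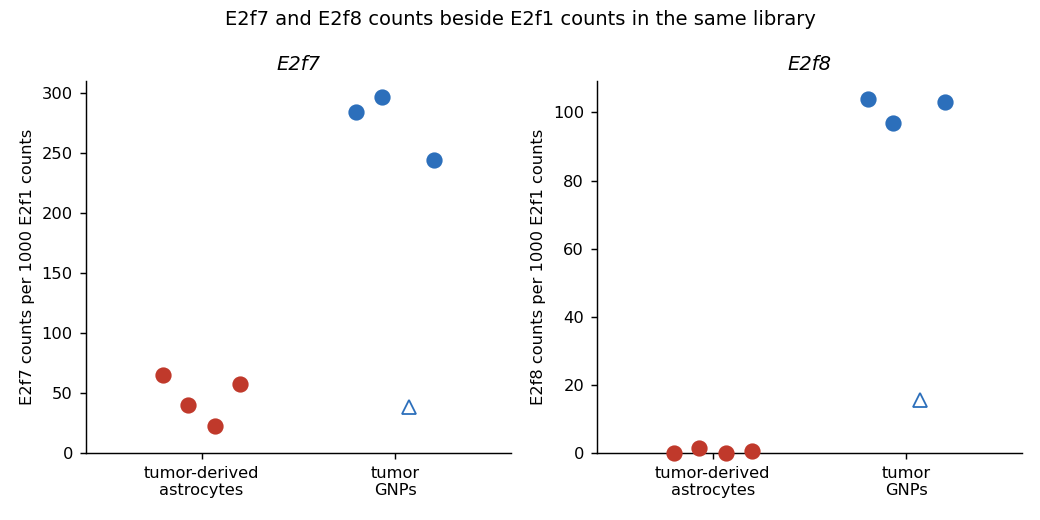
Counts of E2f7 (left) and E2f8 (right) per 1000 counts of E2f1 in the same library, for tumor-derived astrocytes and tumor GNPs, on linear axes from 0. Each point is a library and the open triangle is GNP replicate 3, which stands at 38.4 for E2f7 and 15.7 for E2f8, below the other GNP libraries. No tumor-derived library exceeds 1.62 for E2f8.

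Promoter windows of RefSeq (build GRCm38.p6, 300 bases from 250 before to 50 after a start site) were available for 8 of the 10 genes, not for E2f4 and E2f5. They were searched for the 8-letter E2F motif TTTCCCGC, TTTCGCGC, TTTGCCGC or TTTGGCGC on both strands, the reverse complements being GCGGGAAA, GCGCGAAA, GCGGCAAA and GCGCCAAA. A window each of E2f2, E2f7 and E2f8 is shown 5′ to 3′ on the strand of the gene with any match in capitals. Those of E2f2 and E2f7 each hold 1 match, and that of E2f8 holds none. The E2f2 window shown is chr4:136172024-136172323 on the plus strand, that of E2f7 is chr10:110745189-110745488 on the plus strand, and that of E2f8 is chr7:48881547-48881846 on the minus strand. Another E2f2 window, chr4:136180532-136180831 inside the gene, holds no match. E2f1 and Tfdp2, which like E2f2 and E2f7 had counts in both tumor groups, hold none in their windows.
E2f2: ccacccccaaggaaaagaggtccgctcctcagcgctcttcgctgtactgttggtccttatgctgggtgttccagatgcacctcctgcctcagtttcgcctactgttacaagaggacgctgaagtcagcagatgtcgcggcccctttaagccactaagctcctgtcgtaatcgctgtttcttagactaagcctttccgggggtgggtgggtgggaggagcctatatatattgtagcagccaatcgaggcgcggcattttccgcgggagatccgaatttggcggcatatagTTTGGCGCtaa
E2f7: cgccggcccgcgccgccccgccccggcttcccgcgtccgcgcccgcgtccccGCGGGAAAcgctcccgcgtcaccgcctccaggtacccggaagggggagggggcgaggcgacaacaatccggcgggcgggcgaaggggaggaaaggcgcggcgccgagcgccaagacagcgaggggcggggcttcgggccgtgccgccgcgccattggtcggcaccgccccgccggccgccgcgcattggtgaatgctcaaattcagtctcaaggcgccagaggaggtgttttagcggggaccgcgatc
E2f8: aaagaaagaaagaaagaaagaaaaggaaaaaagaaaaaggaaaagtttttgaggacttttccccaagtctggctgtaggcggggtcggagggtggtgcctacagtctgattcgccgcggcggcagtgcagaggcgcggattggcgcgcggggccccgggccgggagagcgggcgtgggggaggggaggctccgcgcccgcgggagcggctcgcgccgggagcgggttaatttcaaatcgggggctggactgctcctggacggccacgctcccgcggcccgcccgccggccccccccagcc
The E2f2 match begins 39 bases after the RefSeq start site and reads TTTGGCGC, and the E2f7 match begins 198 bases before the start site and reads GCGGGAAA, the motif on the other strand. E2f3 and Tfdp1 also hold a match, 11 bases before the start in 1 E2f3 window and, for Tfdp1, at a site shared by 2 overlapping windows. The windows of E2f1, E2f6, E2f8 and Tfdp2 hold none of these letters, which says nothing about binding there. The E2f1 window (chr2:154569377-154569676) and both Tfdp2 windows (from chr9:96258455 on) lie inside these genes, away from their 5′ ends at 154569892 and 96196275. The stretches around those 5′ ends were therefore not searched. In all, 4 of the 8 genes had a match, while 2.6% of 27025 genes with a window did, or 5.93% with both central letters left free, where the same 4 genes matched. No match overlapped another.

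Of the pocket-protein-bound repressors, E2f5 was lower in tumor-derived astrocytes than in both other groups, and E2f4 was not called in any comparison. E2f5 (chr3:14578641-14606309, plus strand), which pairs mainly with p130 (Rbl2) in resting cells, was at 2.49, 4.91, 3.25 and 4.03 CPM in tumor-derived astrocytes. In GNPs it was at 21.3, 22.0, 23.1 and 23.8 CPM and in normal astrocytes at 9.27, 26.0, 19.9 and 10.8 CPM. All 4 tumor-derived libraries lay below all 8 others, and the GNP libraries lay within the normal range. E2f5 averaged 3.67 ± 1.04 CPM in tumor-derived astrocytes (SD, n = 4), 22.7 ± 0.55 CPM in GNPs (SD, n = 2) and 16.5 ± 7.88 CPM in normal astrocytes (SD, n = 4). It fell by 2.16 ± 0.44 (log2) in tumor-derived over normal astrocytes (edgeR adjusted p = 0.0018) and by 2.61 ± 0.45 in tumor-derived astrocytes over GNPs (0.000857, or 0.0152 with the trio summed). The call against GNPs was lost without tumor-derived replicate 3 (adjusted p = 0.052) or GNP replicate 3 (0.0684). The 3′ end of E2f5 overlaps the opposite-strand gene 1810022K09Rik, which had 13867 counts over the 12 libraries against 1661 for E2f5, so reads of the shared stretch are uncertain.

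E2f4 (chr8:105297663-105305369, plus strand), which binds every pocket protein and is the main E2F of quiescent cells, was at 1.62, 1.23, 1.19 and 7.39 CPM in the tumor-derived libraries, 13.5, 16.2, 7.68 and 11.3 CPM in GNPs and 5.11, 12.4, 8.0 and 9.47 CPM in normal astrocytes. Tumor-derived replicate 4 stood apart from its group and inside the range of normal astrocytes, and still just below the lowest GNP library. The difference from normal astrocytes of -1.6 ± 0.65 (log2) did not pass (edgeR adjusted p = 0.0669). Without tumor-derived replicate 4 it was -2.65 with an adjusted p of 0.00503, and in DESeq2 it passed at 0.0324, in a range of 0.00503 to 0.179 over the alternatives. The difference from GNPs of -2.08 ± 0.66 passed with 12 libraries (0.0283) and not with the trio summed (0.154), and is not called.

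E2f6 (chr12:16810965-16826743, plus strand), which recruits the Polycomb complex PRC1.6 to silence germline genes in somatic cells, was also lowest in tumor-derived astrocytes. It was at 16.5, 6.88, 11.9 and 5.09 CPM there, at 42.0, 35.9, 33.0 and 34.7 CPM in GNPs and at 41.9, 54.1, 58.5 and 40.8 CPM in normal astrocytes. The tumor-derived libraries all lay below the others, and GNPs overlapped normal astrocytes in their highest library. The means were 10.1 ± 5.14 CPM (SD, n = 4), 35.3 ± 3.2 CPM (SD, n = 2) and 48.8 ± 8.83 CPM (SD, n = 4) in the same order of groups. E2f6 fell by 2.27 ± 0.38 (log2) in tumor-derived over normal astrocytes (edgeR adjusted p = 0.000504) and by 1.85 ± 0.38 in tumor-derived astrocytes over GNPs (0.00263, or 0.0319 with the trio summed). Its call against GNPs was lost without tumor-derived replicate 2, 3 or 4 or GNP replicate 3 (adjusted p = 0.0707 to 0.0985). The table ends E2f6 12999 bases before the end in GENCODE M21, and whether reads beyond the table's end were counted is not given in the sources used here.

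**Figure D3:**
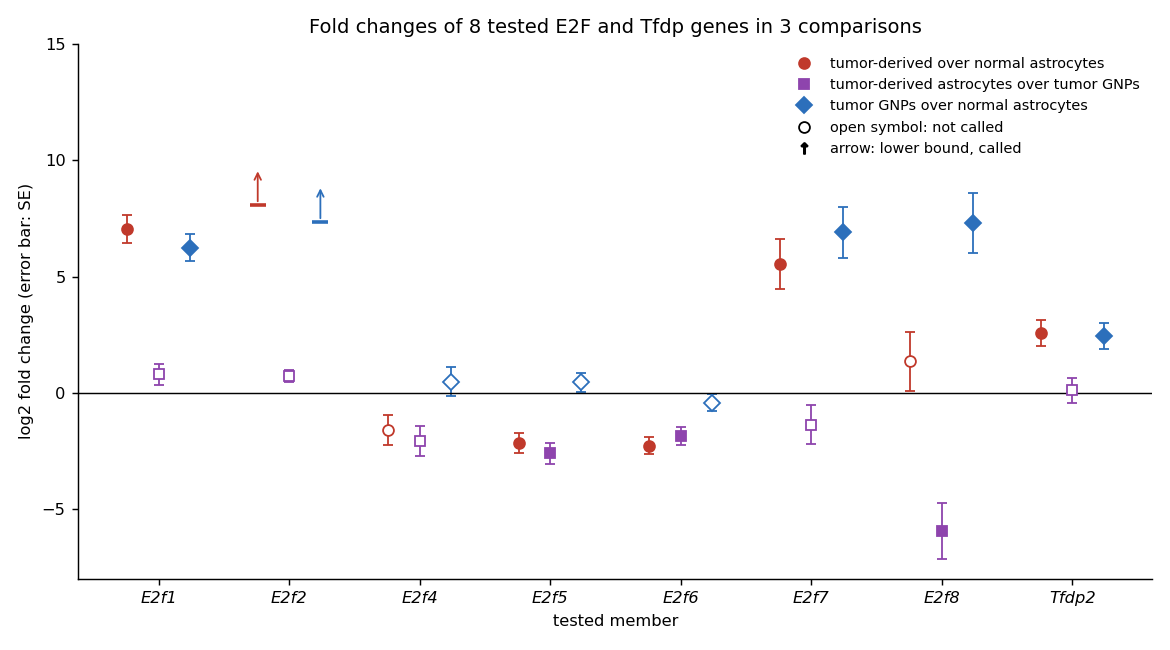
Log2 fold changes of the 8 tested genes in 3 comparisons, with standard errors as bars. Filled symbols were called and open symbols were not, and for E2f2 against normal astrocytes, where that group was at 0, a bar with an arrow marks the lower bound (log2 8.08 for tumor-derived astrocytes and 7.35 for GNPs). E2f5 and E2f6 lie below 0 in both comparisons of tumor-derived astrocytes, and E2f8 against GNPs has the lowest value, -5.95.

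Of the Tfdp partners, Tfdp2 (chr9:96196275-96323646, plus strand), the DP2 subunit, was higher in tumor-derived than in normal astrocytes. It was at 28.1, 13.4, 18.4 and 20.6 CPM in the tumor-derived libraries, 21.5, 22.9, 5.91 and 24.9 CPM in GNPs and 3.78, 2.16, 6.02 and 1.76 CPM in normal astrocytes. Tumor-derived and normal libraries did not overlap, whereas GNP replicate 3 fell just below the highest normal library. Tfdp2 rose by 2.55 ± 0.56 (log2) in tumor-derived over normal astrocytes (edgeR adjusted p = 0.00298), and its difference from GNPs was 0.1 (adjusted p = 0.903). That small difference rested on the GNP trio, since it was 1.78 (adjusted p = 0.409) with GNP replicate 3 as the only GNP library. Its rise of 2.45 ± 0.56 in GNPs over normal astrocytes passed both fits (0.00309, or 0.0367 with the trio summed). The rise no longer passed when normal replicate 1, 2 or 4 or any tumor-derived replicate was left out (adjusted p = 0.0508 to 0.0675), without the filter on low counts (0.0563) or in a fit of the 2 groups alone (0.166), and the change was 0.81 (adjusted p = 0.6) with GNP replicate 3 alone.

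Tfdp1 (chr8:13339674-13377702, plus strand), the DP1 subunit found in most E2F dimers, was counted too rarely to be tested. It had 12, 1, 10 and 10 counts in tumor-derived astrocytes, 3, 7, 30 and 6 in GNPs, and 0, 0, 0 and 1 in normal astrocytes. GNP replicate 3 held most of the GNP counts, and only tumor-derived replicate 2 came near the normal libraries. Over summed counts the ratio of tumor-derived to normal astrocytes was 38.0 (95% exact interval 6.37 to 1550, counting error only). Without the filter the differences from normal astrocytes passed, at 4.65 ± 1.46 (log2) for tumor-derived astrocytes (edgeR adjusted p = 0.0261, or 0.0477 with the trio summed) and 5.01 for GNPs (0.0165, or 0.0335 summed). GENCODE M21 ends Tfdp1 746 bases beyond the table's gene, a stretch from which a 3′ end method could take reads.

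GNP replicate 3 thus stood below the other GNP libraries for E2f7, E2f8 and Tfdp2, above them for E2f1, E2f3 and Tfdp1, and among or close to them for E2f2, E2f5 and E2f6. It also had the lowest GNP value for E2f4.

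The regulators of the family are given from lists chosen with earlier results of these data known. Among the pocket proteins, all 3 of which were tested, Rbl1 (p107, itself an E2F target) was higher and Rb1 (the retinoblastoma protein) lower in tumor-derived than in normal astrocytes. Rbl1 was at 3.7 ± 1.17 CPM in tumor-derived astrocytes (SD, n = 4), 5.14 ± 3.01 CPM in GNPs (SD, n = 2) and 0.0488 ± 0.0976 CPM in normal astrocytes (SD, n = 4), on 136, 236 and 2 counts. Rb1 averaged 3.01 ± 0.734, 8.84 ± 3.34 and 13.6 ± 11.4 CPM in the same order, and fell by 2.18 ± 0.67 (log2) in tumor-derived over normal astrocytes (edgeR adjusted p = 0.0206). This fall no longer passed when normal replicate 4 or tumor-derived replicate 3 or 4 was left out. Rbl2 (p130) averaged 4.02 ± 1.21, 13.0 ± 5.98 and 4.76 ± 3.18 CPM, and its difference of -1.91 between tumor-derived astrocytes and GNPs did not pass (adjusted p = 0.0703). Against GNPs, 0 of the 3 were called in either direction by edgeR or DESeq2, with 1 lower and 0 higher at an unadjusted p under 0.05.

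Of 9 G1 and S phase cyclins and kinases, which inactivate the pocket proteins, 8 were tested. All 8 were higher in tumor-derived than in normal astrocytes, where 20.7% of all tested genes were called higher. The median log2 fold change of the 8 was 4.11, against 0.03 over all genes. DESeq2 called 6 of them. In GNPs over normal astrocytes 6 were higher (median 4.83, all genes -0.03), against 13.9% of all tested genes. Between the tumor groups 0 were called by edgeR or DESeq2 (median 0.11), with 1 higher and 1 lower at an unadjusted p under 0.05. Of all tested genes, edgeR called 7.84% higher and 4.36% lower there. Ccnd2 (cyclin D2), which Hedgehog signalling induces in granule progenitors, averaged 1130 ± 424 CPM in tumor-derived astrocytes (SD, n = 4), 772 ± 163 CPM in GNPs (SD, n = 2) and 4.17 ± 3.12 CPM in normal astrocytes (SD, n = 4). Ccnd1 (cyclin D1) averaged 137 ± 62.5, 52.9 ± 9.12 and 2.27 ± 2.22 CPM in the same order, and the 0.66 and 1.29 (log2) by which Ccnd2 and Ccnd1 differed between the tumor groups did not pass (adjusted p = 0.374 and 0.134). Ccnd3 (cyclin D3) rose by 1.36 ± 0.45 in tumor-derived over normal astrocytes (adjusted p = 0.0289), a call lost without normal replicate 2 or tumor-derived replicate 1 or 3.

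Of the 7 inhibitors of these kinases, 2 were higher (Cdkn1c and Cdkn2a) and 1 lower (Cdkn2d) in tumor-derived than in normal astrocytes, shares near the 20.7% and 19.3% of all tested genes called higher and lower. Cdkn2a, whose locus encodes both p16 and p19Arf and which these counts cannot separate, had 131, 221 and 0 counts over the tumor-derived, GNP and normal libraries, and was at least 12.6-fold higher in tumor-derived astrocytes and at least 18.9-fold higher in GNPs than in normal astrocytes. Cdkn1c (p57) rose by 5.96 ± 1.48 (log2) in tumor-derived over normal astrocytes (edgeR adjusted p = 0.00643). Cdkn2d (p19Ink4d) averaged 21.0 ± 2.85 CPM in tumor-derived astrocytes (SD, n = 4), 44.9 ± 11.9 CPM in GNPs (SD, n = 2) and 51.6 ± 14.7 CPM in normal astrocytes (SD, n = 4), a fall of 1.3 ± 0.29 against normal astrocytes (adjusted p = 0.0033). Cdkn1a (p21) and Cdkn1b (p27) did not pass in any comparison. Against GNPs edgeR called 0 of the 7, with 0 higher and 2 lower at an unadjusted p under 0.05, and DESeq2 called 1 lower.

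The MuvB core joins E2f4 and a pocket protein in the DREAM repressor of resting cells and Mybl2 in dividing ones. Of 5 tested genes of this list 3 were higher in tumor-derived than in normal astrocytes, Lin9, Rbbp4 and Mybl2, against 20.7% of all tested genes. With the GNP trio summed in the fit 1 of them passed, Lin9 (edgeR adjusted p = 0.0283, against 0.0751 for Rbbp4 and 0.071 for Mybl2). Mybl2 averaged 109 ± 41.2 CPM in tumor-derived astrocytes (SD, n = 4), 35.5 ± 9.65 CPM in GNPs (SD, n = 2) and 12.7 ± 18.6 CPM in normal astrocytes (SD, n = 4), with an edgeR adjusted p of 0.0444 against normal astrocytes that held without normal replicate 2 or 4 and was lost without any other single library. Lin9 rose by 3.03 ± 0.84 (log2, adjusted p = 0.0116). The call of Rbbp4, the histone-binding subunit, was lost without normal replicate 4, tumor-derived replicate 1, 3 or 4, or GNP replicate 1, 2 or 4. Lin37 did not pass in any comparison. Lin52 had 4, 0 and 2 counts over the tumor-derived, GNP and normal libraries and was not tested. Against GNPs edgeR and DESeq2 called 0 of the 5, with 0 higher and 1 lower at an unadjusted p under 0.05.

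Of 3 ubiquitin ligase parts that mark E2F proteins for destruction, 1 was higher in tumor-derived than in normal astrocytes, where 20.7% of all tested genes were. It was the APC/C activator Fzr1 (Cdh1), at 300 ± 65.1 CPM in tumor-derived astrocytes (SD, n = 4), 184 ± 79.2 CPM in GNPs (SD, n = 2) and 123 ± 13.9 CPM in normal astrocytes (SD, n = 4). Ccnf (cyclin F), which targets the activators and E2f7 and E2f8 in human cells, averaged 188 ± 25.3, 129 ± 23.3 and 53.0 ± 77.1 CPM in the same order and did not pass (adjusted p = 0.103). Skp2, which in human cells binds E2F1, averaged 10.3 ± 5.45, 15.6 ± 6.25 and 9.12 ± 8.3 CPM and did not pass.

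Of 9 tested PRC1.6 partners of E2f6, 1 was lower in tumor-derived astrocytes, Yaf2, in both comparisons, where 19.3% of all tested genes were called lower against normal astrocytes and 4.36% against GNPs. DESeq2 called 2 of the 9 lower against normal astrocytes. Yaf2, a homologue of the Polycomb subunit Rybp, averaged 2.03 ± 0.326 CPM in tumor-derived astrocytes (SD, n = 4), 13.2 ± 4.82 CPM in GNPs (SD, n = 2) and 7.13 ± 3.79 CPM in normal astrocytes (SD, n = 4). It fell by 1.81 ± 0.52 (log2) in tumor-derived over normal astrocytes (edgeR adjusted p = 0.0139) and by 2.5 ± 0.53 against GNPs (0.00341, or 0.0291 with the trio summed), the second call being lost without tumor-derived replicate 2, 3 or 4 or GNP replicate 3. Pcgf6, L3mbtl2 and Mga, the first 3 of the list, did not pass in edgeR in any comparison. Pcgf6, at 2.11 ± 0.794 CPM in tumor-derived astrocytes (SD, n = 4) and 6.76 ± 4.88 CPM in normal astrocytes (SD, n = 4), came nearest (adjusted p = 0.0659), and it was called lower in DESeq2 and by edgeR without normal replicate 1. Of 5 germline genes known to be silenced by E2f6 in mice, 2 were tested. The meiotic cohesin gene Stag3, 1 of the 2, was higher in both tumor groups than in normal astrocytes. Of all tested genes, 20.7% were called higher in tumor-derived and 13.9% in GNPs over normal astrocytes. Stag3 had 0, 33, 6 and 43 counts in tumor-derived astrocytes, 213, 254, 305 and 239 in GNPs and 0 in each normal library. It was at least 7.52-fold higher in tumor-derived astrocytes and at least 96.1-fold higher in GNPs than in normal astrocytes, and its fold between the tumor groups of -3.57 ± 1.01 (log2) passed with 12 libraries (adjusted p = 0.0215) and not with the trio summed (0.1). Smc1b, the other tested gene, had 22, 47 and 17 counts over the tumor-derived, GNP and normal libraries. It did not pass in edgeR in any comparison. Slc25a31, Tuba3a and Tuba3b had 2 counts or fewer over the 12 libraries.

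The cell cycle genes that E2Fs are known to switch on were high in both tumor groups. Of 30 listed targets 29 were tested, and 20 were higher in tumor-derived than in normal astrocytes (median log2 fold change 3.29, or 3.11 with Orc1 at its bound, against 0.03 over all genes). The count was also 20 in GNPs over normal astrocytes (median 3.83, or 3.8 with Orc1 at its bound, against -0.03). Of all tested genes, 20.7% and 13.9% were called higher in these comparisons. None of the 29 was lower against normal astrocytes by edgeR or DESeq2, or at an unadjusted p under 0.05. Of all tested genes, edgeR called 19.3% lower in tumor-derived and 13.4% lower in GNPs over normal astrocytes. The 30 genes summed to 2182 to 3139 CPM in tumor-derived astrocytes, 3468 to 3738 CPM in GNPs and 215 to 408 CPM in normal astrocytes, so that the 3 groups did not overlap on this sum. They move with the dividing cell markers given above, and the part of those in the sum was not tested.

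Single targets showed large steps against normal astrocytes. Mcm3, a subunit of the replicative helicase, averaged 68.3 ± 19.2 CPM in tumor-derived astrocytes (SD, n = 4), 123 ± 4.72 CPM in GNPs (SD, n = 2) and 0.152 ± 0.144 CPM in normal astrocytes (SD, n = 4), and rose by 8.74 ± 0.54 (log2) in tumor-derived over normal astrocytes (edgeR adjusted p = 2.15e-07). Tk1 (thymidine kinase) averaged 73.2 ± 18.5, 62.4 ± 16.6 and 0.143 ± 0.182 CPM in the same order. Cdc6, which loads that helicase, averaged 15.5 ± 8.58, 19.1 ± 4.7 and 0.138 ± 0.16 CPM. Ccna2 (cyclin A2) averaged 45.0 ± 6.59, 175 ± 17.9 and 1.52 ± 2.92 CPM, and Cdk1, its kinase in G2, averaged 6.88 ± 4.36, 28.0 ± 6.05 and 0.0236 ± 0.0473 CPM, and neither passed both fits between the tumor groups. Ccne1 (cyclin E1) rose by 1.9 ± 0.68 in tumor-derived over normal astrocytes (adjusted p = 0.0383), a call lost without normal replicate 2, 3 or 4, tumor-derived replicate 1, or GNP replicate 1, 2 or 4, and Ccne2 had 18, 7 and 24 counts and was not tested.

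Between the tumor groups 2 of the 29 targets were called lower in tumor-derived astrocytes, Pcna and Rrm2, against 4.36% of all tested genes. By edgeR, by DESeq2 and at an unadjusted p under 0.05, 0 were higher, where edgeR called 7.84% of all tested genes higher. The median was -0.76, against 0.08 over all genes, and 11 of the 29 were lower at an unadjusted p under 0.05. Pcna, the sliding clamp of DNA polymerase, averaged 1.22 ± 1.31 CPM in tumor-derived astrocytes (SD, n = 4), 18.3 ± 6.74 CPM in GNPs (SD, n = 2) and 1.46 ± 0.85 CPM in normal astrocytes (SD, n = 4). It fell by 4.04 ± 0.76 (log2) in tumor-derived astrocytes over GNPs (edgeR adjusted p = 0.00172, or 0.0272 with the trio summed), while its difference from normal astrocytes was -0.24 (adjusted p = 0.81). Rrm2, the small subunit of ribonucleotide reductase, averaged 21.5 ± 4.24, 90.7 ± 15.9 and 0.0674 ± 0.0835 CPM in the same order and fell by 1.98 ± 0.39 against GNPs (0.00211, or 0.0291 summed). Both calls were lost without GNP replicate 3 or tumor-derived replicate 2 or 3, that of Pcna also without replicate 1 and that of Rrm2 also without replicate 4. The count itself moved from 0 to 5 on leaving out single libraries, and was 5 without the summed fit.

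**Figure D4:**
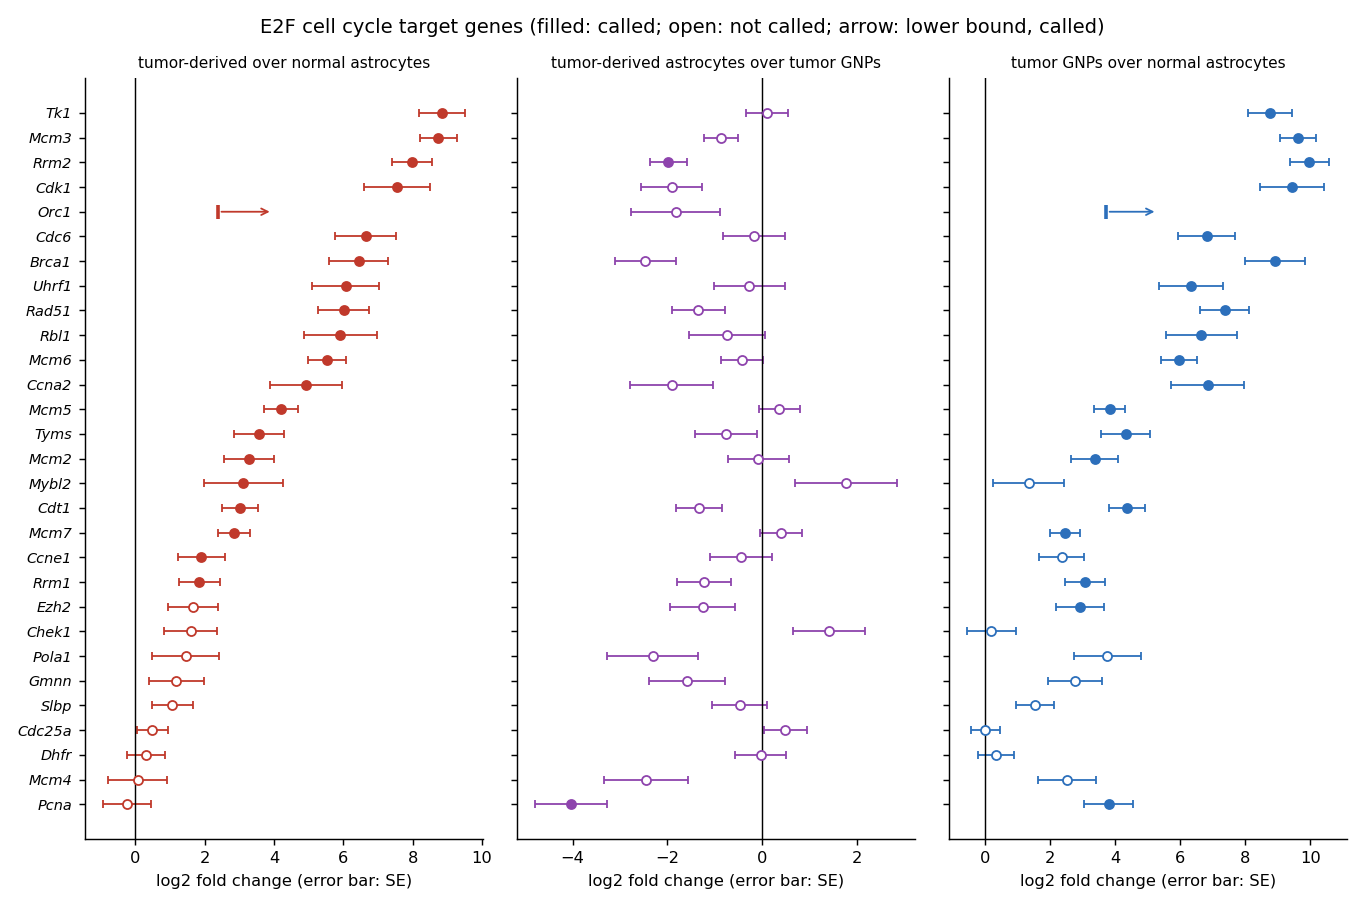
Log2 fold changes with standard errors (bars) of the 29 tested E2F cell cycle targets in 3 comparisons, ordered by the change in tumor-derived over normal astrocytes. Filled points were called and open points were not, and Orc1, at 0 in normal astrocytes, is drawn at its lower bound with an arrow. Against normal astrocytes 20 genes are called in each tumor group, and between the tumor groups Pcna and Rrm2 are.

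Among apoptosis genes that E2f1 is known to activate, Apaf1, the scaffold of the apoptosome, was higher in tumor-derived than in normal astrocytes. It averaged 13.6 ± 7.85 CPM in tumor-derived astrocytes (SD, n = 4), 14.4 ± 11.8 CPM in GNPs (SD, n = 2) and 1.48 ± 0.447 CPM in normal astrocytes (SD, n = 4), and rose by 3.19 ± 0.7 (log2, edgeR adjusted p = 0.00307). Bcl2l11 (Bim) was lower in tumor-derived astrocytes than in GNPs, at 20.1 ± 4.26 CPM (SD, n = 4) against 65.7 ± 8.3 CPM (SD, n = 2), by 1.77 ± 0.39 (adjusted p = 0.00403, or 0.0467 with the trio summed), and this call was lost without any single tumor-derived replicate, normal replicate 4, or GNP replicate 2 or 3. Trp73 had 13, 74 and 206 counts over the tumor-derived, GNP and normal libraries, most of the last in normal replicate 1, and did not pass.

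For each tested gene, the 3 non-member genes with the most similar profile over the 12 libraries were found by the root mean square difference of centred log2 CPM (prior count 2), as a description. Rftn1 (0.31) and Mxd3 (0.41), a Max-binding repressor of dividing cells, came nearest to E2f2, followed by the chromatin assembly subunit Chaf1b (0.52). E2f1 had no gene closer than 0.63 (2610318N02Rik), E2f7 was nearest to 9430062P05Rik (0.3), E2f8 to RP23-222G22.5 (0.4) and the galanin receptor Galr1 (0.5), and Tfdp2 to RP23-347G20.4 (0.44). E2f4 and E2f5 shared Atf2, a bZIP transcription factor, among their 3 nearest (0.44 and 0.37), where Atf2 averaged 3.48, 18.4 and 18.3 CPM in tumor-derived astrocytes, GNPs and normal astrocytes. E2f6 was nearest to the mitochondrial import chaperone Timm9 (0.29), at 15.8, 47.8 and 59.3 CPM in the same order.

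Markers of other cells differed between the groups too. Summed microglia markers (7 genes) ran from 423 to 711 CPM in tumor-derived astrocytes, from 1.81 to 2.8 CPM in GNPs, where Aif1, Cx3cr1 and P2ry12 were at 0, and from 109 to 427 CPM in normal astrocytes. Endothelial markers (6 genes) ran from 177 to 255, from 0.104 to 5.7 and from 163 to 588 CPM, oligodendrocyte lineage markers (8 genes) from 124 to 234, from 46.4 to 48.6 and from 171 to 644 CPM, and markers of mature and Purkinje neurons (8 genes) from 1062 to 2069, from 128 to 171 and from 3669 to 13081 CPM. Of the neuron markers 8 of 8 tested were lower in tumor-derived than in normal astrocytes, where 19.3% of all tested genes were. E2f5 and E2f6 were lower there too. The 8 markers were also lower in GNPs than in normal astrocytes (13.4% of all tested genes), where E2f5 and E2f6 were not called. In tumor-derived astrocytes over GNPs 5 of the markers were higher (7.84% of all tested genes), while E2f5 and E2f6 were lower. The part of other cells in the E2F values was not tested.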

How the data were processed

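The values are raw counts of reads per gene in 12 libraries, as the authors deposited them in 1 table. Per the submitters' processing notes, reads were checked with FastQC and aligned with STAR to mm10. Which program counted reads, on what annotation and with what use of strand, is not given in the sources used here. Per the labels' protocols, cells were captured by laser from frozen sections and their RNA was amplified as 3′ end cDNA, which makes counts independent of gene length to a first approximation and adds amplification noise. Repeated lines (767 of 47284) were removed and 27 symbols that a spreadsheet had turned into dates were restored through the Ensembl identifier. No column of other samples was present.

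Counts were fitted with edgeR 4.0.16 (R 4.3.3): TMM factors, filterByExpr (minimum count 10, minimum total 15), robust quasi-likelihood F-test and Benjamini-Hochberg adjustment over 14393 genes, called at 0.05. The common biological coefficient of variation was 0.66, and 0.722 with GNP replicates 1, 2 and 4 summed. The fit was tested on simulated data. Replicates were numbered in accession order and pair nothing. A 95% exact binomial interval covers a ratio with few counts, and floors use 3 counts per library, both counting error only. Alternatives were upper quartile factors, DESeq2 1.42.0, no filter, a filter of CPM 10 in 4 libraries, fits of 2 groups, summed GNP libraries and each library left out in turn. GNP replicate 3 as the only GNP library, and calls without the summed fit, were added after the data were seen.

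The members, gene lists and tests were chosen with earlier results of these data known. The text names all 10 members, of each short list the first 3 genes and the called genes of largest rise and fall, and of the target list the first 6 and the 3 called genes of largest rise and fall in each comparison, and the genes nearest to a member by profile. Rbbp4, Orc1, Ccno, Mcidas, Cdc20b, Smc1b, Aldoc, Gfap, Aldh1l1, Slc1a2, S100b and Sox9 were named after their values were seen. A result of the apoptosis list is not reported here. For GNP means, replicates 1, 2 and 4 were averaged to 1 value (n = 2). Promoter sequences are from RefSeq, GRCm38.p6, which is the same build as mm10.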

Additional observations from a re-analysis of the deposited data

Results flagged for a closer look

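The libraries listed here are for the members and for the regulators and targets named by the rule given above. Other list genes and the cell type markers are left out, though some of them also exceed the value used. In each group of 4 astrocyte libraries, the gap of a library to the nearest other one was divided by the group's range. A library is listed where this ratio exceeded Dixon's 95% critical value for 4 samples. Chance flags about 1 in 20 such groups if values are normally distributed, and GNPs were not examined because they count as 2 samples. Where only 1 library of a group has counts, the ratio is 1.0 whatever the count, so that rate does not hold and the flag marks only low counts. Tumor-derived replicate 4 stood apart for E2f4 at 7.39 CPM, and tumor-derived replicate 1 for Ccne1 at 69.7 CPM and for Tuba3b at 0.125 CPM. Among normal astrocytes, replicate 4 was the only library with counts of E2f7 (0.488 CPM), Tfdp1 (0.0976 CPM), Rbl1 (0.195 CPM) and Lin52 (0.195 CPM). Normal replicate 2 was the only one with counts of E2f8 (0.113 CPM) and Slc25a31 (0.227 CPM), and it stood above the others for Ccna2 at 5.9 CPM. Normal replicate 3 stood apart for Ccnf at 168 CPM and Yaf2 at 12.7 CPM. Normal replicate 1 was the only one with a count of Cdk1 (0.0946 CPM) and stood apart for Trp73 at 18.2 CPM. Values under about 0.3 CPM rest on 1 to 3 counts.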

How the results depend on the processing

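Over 465 recomputed fold changes of the 8 tested members, 432 kept their direction and side of the threshold, 26 lost the call, 3 gained it and 4 reversed without a call in any setting. Every member called between tumor-derived and normal astrocytes kept its call in every alternative in which it was tested. Upper quartile factors moved the median of all genes from 0.03 to 0.25 (log2) in that comparison and from -0.03 to 0.21 in GNPs over normal astrocytes, and no member changed direction with them.

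The calls between tumor-derived astrocytes and GNPs were the least stable. The 3 members called lower became 0 with GNP replicate 3 as the only GNP library and ranged from 0 to 3 with single libraries left out. The 2 targets called lower became 5 without the summed fit, 10 (with 1 called higher) in a fit of the 2 groups alone, 0 with GNP replicate 3 alone, and 0 to 5 with single libraries left out. In GNPs over normal astrocytes the 5 members called higher became 3 under a filter of CPM 10, where 6 members were tested, and 3 with GNP replicate 3 alone, where 10 were tested and E2f7, E2f8 and Tfdp2 lost the call. Tfdp2 in tumor-derived astrocytes over GNPs, 0.1, ranged from -0.21 to 0.25 with single libraries left out and was 1.78 with GNP replicate 3 alone. With GNP replicate 3 alone, E2f7 in that comparison was 0.45 and E2f4 in GNPs over normal astrocytes -0.17. Several of these settings leave fewer GNP samples, and beyond that the cause was not tested. No paired analysis was possible because the replicate numbers come from accession order.

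Depth limits E2f3, E2f8 and Tfdp1, which had 3 counts or fewer in several libraries.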

Other observations

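E2f4 and E2f5 are also known to act with Gmnc and Mcidas in switching on the multiciliated cell programme, and 6 of its 7 listed genes are in the table. Ccno (cyclin O), which acts in that programme, had 19, 16, 18 and 12 counts in tumor-derived astrocytes and 0 in every GNP and normal library, so that it was at least 5.9-fold higher in tumor-derived astrocytes than in GNPs and at least 6.33-fold higher than in normal astrocytes. Mcidas, its neighbour on chromosome 13, had 11, 1, 2 and 4 counts in tumor-derived astrocytes and 0 in the 8 other libraries. Both fell below the filter and were not tested, and both were singled out after their values were seen. Cdc20b, also listed and not tested, had 6, 4, 6 and 3 counts in tumor-derived astrocytes. It had 25, 21, 0 and 31 counts in GNPs and 0 in each normal library. Gmnc had 0 counts in all 12 libraries, and Foxj1, the master regulator of motile cilia, had 5, 40 and 16 counts over the tumor-derived, GNP and normal libraries. Myb had 18, 104 and 0 counts in the same order and was called higher in both tumor groups than in normal astrocytes (edgeR adjusted p = 0.00259 and 0.000237, the second 0.00339 with the GNP trio summed). Of all tested genes, 20.7% and 13.9% were called higher in these comparisons. With normal astrocytes set to 3 counts per library, Myb was at least 1.7-fold higher in tumor-derived astrocytes and at least 9.06-fold higher in GNPs.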
